A study of Mus musculus with 9 samples.

Results

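The genes described here are the numbered mouse Zfp genes that were expressed in primary microglia, the resident macrophages of the brain. Of 24411 gene entries in each count table, 336 had a symbol made of Zfp and a number once Zfp36 was left out. The members were selected on their measured levels: 157 of these genes reached a mean CPM of 10 in at least 1 of the 3 treatment groups. The threshold was read on plain CPM (counts scaled to a fixed library size), the reverse-strand count of a gene over the total of all gene counts in its library. Since a gene enters by being high in any 1 group, 103 genes that reached the threshold in every group are described apart from 54 that reached it in 1 or 2 groups only. The rule favours differences among those 54, so their values are given as a description with no p-value. Nothing is drawn from their calls, which enter only counts over all 157, over all numbered Zfp genes tested and over neighbouring pairs.

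Microglia were taken from whole brains of ICR mice at 3 days of age, grown as mixed glia for 2 weeks and shaken off the flasks. They were then treated for 4 h with R848 (resiquimod, a small-molecule TLR7 agonist) at 1 µM, with recombinant mouse IFN-α at 100 U/ml, or with both agents together. Each group had 3 libraries, and cells of the same strain and culture protocol were used in all. Untreated cells were not analysed here, so every difference below is between treatments, and nothing in the labels says whether replicates came from separate litters or cultures. In that case p-values reflect only how far the libraries of a group vary, and that variation may be technical.

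Most Zfp genes encode proteins with tandem zinc fingers of the cysteine-histidine type, each finger folding around a zinc ion and contacting a few bases of DNA. Many of the longer proteins also carry a KRAB domain, which recruits the co-repressor Trim28 and, through it, histone methylation and heterochromatin proteins; this system is best known for silencing transposable elements and for keeping imprinted loci methylated. Other proteins with the same name prefix have no KRAB domain and act as transcriptional activators, RNA-binding proteins or parts of the ubiquitin machinery.

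Gene counts per library ran from 2817772 to 3298567 with R848, 2505941 to 2852960 with IFN-α and 2795385 to 6005578 with both, so that 10 CPM stood for 25.1 to 60.1 counts. The 45S ribosomal RNA entry Rn45s took 13.4% to 26.1% of these counts. Summed markers of microglia were at 2986 to 3415 scaled CPM with R848, 5046 to 5477 with IFN-α and 3453 to 3788 with both. Summed markers of astrocytes were at 1466 to 1734, 1170 to 1475 and 2418 to 3468, and none of the 11 was without counts. In the same order, oligodendrocyte-lineage markers were at 498.5 to 530.7, 642.3 to 756.9 and 559.8 to 606.2. Endothelial markers were at 17.4 to 20.84, 50.57 to 65.43 and 38.44 to 55.3. Neuronal markers were at 133.1 to 150.8, 140.5 to 174 and 158.4 to 172.1. Fibroblast markers were at 135.1 to 178.3, 106.1 to 142.5 and 146.8 to 247.9. The part of these marker differences in the Zfp results was not tested, and fewer cells of a type and less RNA per cell cannot be told apart in bulk RNA.

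The 3 regions below lie directly upstream of genes with low levels in IFN-α; they are shown because Zfp658 and Zfp719 lie side by side and Zfp811 sits in another run of Zfp genes. They are RefSeq promoter sequences on GRCm38.p6, 5′ to 3′ on the strand of the gene, and end at the RefSeq start site or, for Zfp658, where the GENCODE M21 gene begins. Capitals mark the palindrome of the type bound by NRF1 in Zfp658 and Zfp719, and AAGATGGC, a site of the type bound by YY1, in Zfp811.
Zfp811 (chr17:32809932-32810181, minus strand): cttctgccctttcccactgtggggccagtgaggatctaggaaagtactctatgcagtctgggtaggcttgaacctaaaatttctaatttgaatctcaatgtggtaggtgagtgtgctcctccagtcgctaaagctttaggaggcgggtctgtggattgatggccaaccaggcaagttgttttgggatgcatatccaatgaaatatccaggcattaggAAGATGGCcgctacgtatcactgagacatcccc
Zfp658 (chr7:43562120-43562255, plus strand): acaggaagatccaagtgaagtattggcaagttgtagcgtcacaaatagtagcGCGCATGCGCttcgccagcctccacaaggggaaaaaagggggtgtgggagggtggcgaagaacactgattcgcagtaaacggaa
Zfp719 (chr7:43579336-43579585, plus strand): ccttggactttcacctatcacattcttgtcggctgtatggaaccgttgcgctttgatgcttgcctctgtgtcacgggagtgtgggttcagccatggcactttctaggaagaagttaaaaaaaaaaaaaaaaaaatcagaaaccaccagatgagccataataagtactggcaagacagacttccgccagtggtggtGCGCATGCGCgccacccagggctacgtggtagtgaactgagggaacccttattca

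These 2 motifs were searched because their letters had been noticed in these promoters, so finding them there is no result. In all, 8 motifs were searched on both strands of the 250 bases upstream of the start in 160 promoters of 129 members and in 32851 promoters of all genes. The NRF1 palindrome, in the letters capitalised above, was found in 5% of member promoters against 0.782% of all, and AAGATGGC in 1.88% against 1.56%. CCGGAAGT, of the ETS type and chosen after the Zfp558 promoter had been read, was found in 8.75% against 2.88%. The interferon-response core, GAAA repeated after any pair of bases, was found in 1.25% of member promoters against 2.98% of all, and the AP-1 site TGANTCA in 4.38% against 6.75%. The NF-κB site was searched in 2 overlapping forms: GGGANTTCC was found in 3.75% against 1.43% and a form with 1 more free base after GGGA in 1.88% against 1.21%. TATAAA was found in 6.88% against 12.4%. Members were chosen for being expressed, whereas the 32851 promoters were not limited to expressed genes, so the 2 sets are not alike. Several promoters of 1 gene overlap, and no test was made of any of these shares.

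Pattern matching in the GENCODE M21 transcripts, translated in all 3 forward frames, described the encoded proteins for the 155 members found there; Zfp191 and Zfp607 were not matched. A finger pattern was present in 151, with a median of 10 fingers and a maximum of 36 in Zfp142. The other 4 were Zfp703, Zfp503, Zfp330 and Zfp365; the first and second are co-repressors of the NET family, whose single zinc finger has another spacing. A KRAB pattern was present in 61 members. That pattern was widened after a first version had matched 51, and it still misses divergent boxes, so the split by KRAB pattern is approximate. Members lay on 20 chromosomes, with 26 on chromosome 7, 25 on chromosome 17, 14 on chromosome 8 and 12 on chromosome 13. Of Zfp935, 99.3% of 101-base transcript windows occurred in another gene, and the shares were 31.9% for Zfp617, 12.8% for Zfp865, 11.1% for Zfp652 and 10.3% for Zfp747, so their counts are uncertain; 121 members shared none.

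Most members were expressed at low to moderate levels. All levels from here on are CPM scaled by the trimmed mean of M-values (TMM), a factor that corrects for a few genes taking much of a library. Per kilobase of exon and averaged over the groups, Zfp800, a zinc-finger protein needed in pancreatic endocrine development, was highest at 21.7. It was followed by Zfp281 at 19.8, a regulator of pluripotency genes, by Zfp513 at 19.0, by Zfp869 at 17.0 and by Zfp706 at 16.2. Just inside the threshold, by plain CPM in their highest group, were Zfp933 at 11.1, Zfp770 at 11.0, Zfp763 at 10.9, Zfp326 at 10.6 and Zfp346 at 10.1. Just outside were Zfp438 at 9.95, Zfp58 at 9.83, Zfp949 at 9.66, Zfp952 at 9.59 and Zfp324 at 9.54.

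The highest group depended on the scale. By plain CPM, 108 members were highest with R848, 43 with IFN-α and 6 with both agents, whereas by TMM-scaled CPM the numbers were 82, 41 and 34. Together the 157 genes took 0.483% ± 0.0573 of gene counts with R848, 0.409% ± 0.0391 with IFN-α and 0.352% ± 0.018 with both (SD, n = 3 each). Their summed TMM-scaled levels were 4338 ± 309, 3890 ± 68.8 and 4147 ± 43.7 CPM. TMM factors ran from 1.053 to 1.167 with R848, 0.954 to 1.108 with IFN-α and 0.831 to 0.892 with both, so that the choice of scale bears most on comparisons with the combined treatment.

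In the comparison of R848 with IFN-α, the share of members called higher with R848 was close to that of all genes tested. The share called lower was below that of all genes. Calls are adjusted p-values under 0.05 from edgeR's quasi-likelihood test with Benjamini-Hochberg adjustment over the 11002 genes tested, all 157 members among them. With R848, 34 of 157 members were higher (21.7%), where 18.4% of all genes tested were. Another 17 were lower (10.8%), where 19.0% of all genes were. Among the 103 members at the threshold in every group, 22 were higher and 8 lower. The median log2 difference was 0.18 over the 103, 0.12 over the 54 and 0.18 over the 157, against 0.02 over all genes. A change of at least 2-fold was called for 13 members higher (6.91% of all genes) and 3 lower (9.60%). Among the 103 it was called for 6 higher and 0 lower, and the rule favours the rest. All 157 passed the filter on low counts. Over the 244 numbered Zfp genes tested, those under the threshold included, 34 were higher (13.9%) and 22 lower (9.02%).

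**Figure D1:**
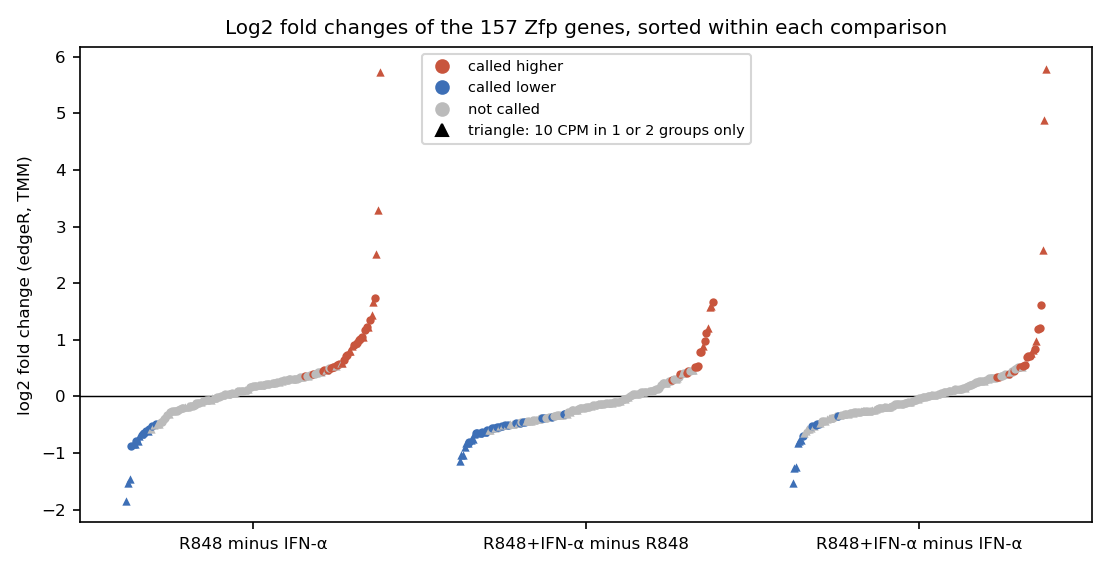
Log2 fold change of each of the 157 Zfp genes (vertical axis) in the 3 comparisons, sorted within each; red and blue mark genes called higher and lower, grey those not called, and triangles the 54 genes at 10 CPM in 1 or 2 groups only. With R848 against IFN-α 34 were called higher (18.4% of all genes tested were) and 17 lower (19.0%). With both agents against R848 the numbers were 16 (19.2%) and 34 (16.7%). Among the 103 genes at the threshold in every group they were 22 and 8, then 12 and 23.

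Zfp263, a zinc-finger transcription factor with a SCAN domain, had the greatest called difference among the 103. Its levels were 69.7, 64.2 and 65.2 with R848, 15.5, 22.4 and 21.3 with IFN-α, and 51.9, 65.2 and 64.8 with both. The IFN-α libraries were low and did not overlap either other group, which overlapped each other. The log2 difference was 1.74 (SE 0.15, adjusted p = 4.43e-11) for R848 and 1.61 (SE 0.15, adjusted p = 5.27e-10) for both agents, each against IFN-α. Both agents against R848 gave -0.13 (SE 0.13, adjusted p = 0.481).

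Zfp719, a KRAB zinc-finger protein, had the same order. Its levels were 48.6, 61.7 and 50.4 with R848, 15.9, 22.1 and 24.2 with IFN-α, and 37.4, 54.9 and 52.1 with both. The log2 differences from IFN-α were 1.36 (SE 0.17, adjusted p = 8.64e-08) with R848 and 1.21 (SE 0.17, adjusted p = 1.39e-06) with both, and R848 libraries overlapped those of the combination. The calls for Zfp263 and Zfp719 against IFN-α held under every alternative run.

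Zfp658 lies 4.15 kb upstream of Zfp719 on the same strand (chr7:43562256-43575461 and chr7:43579610-43593235). Its levels were 14.8, 15.2 and 12.7 with R848, 1.55, 2.54 and 3.18 with IFN-α, and 14.2, 9.50 and 19.3 with both. The IFN-α libraries were the low ones, with log2 differences of 2.51 (SE 0.32) for R848 and 2.59 (SE 0.32) for both. Zfp658 is one of the 54 that reached the threshold in 1 or 2 groups only. The rule favours such a difference, so it adds no weight to the order seen in Zfp719. Cd33, the next tested gene upstream of Zfp658, on the other strand and 17.8 kb away, was higher than with IFN-α by 1.34 with R848 and by 1.85 with both.

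Zfp811, a KRAB protein gene with a pattern of 13 fingers, was nearly without counts in IFN-α. It is also one of the 54, whose differences the rule favours, so its values are a description only. Its levels were 23.1, 30.4 and 27.5 with R848 and 25.8, 30.2 and 28.8 with both, whereas IFN-α libraries held 0, 1.45 and 0. The summed counts were 269, 4 and 282 in R848, IFN-α and the combination, and all 4 in IFN-α came from replicate 2. By counts the ratio to IFN-α was 57.1 with R848 (95% interval 22.1 to 211) and 60 with both (23.2 to 222), covering counting error only. Without IFN-α replicate 2 that group held no count. Against an assumed 3 counts over its other libraries, the level was 51.4-fold higher with R848 and 54-fold higher with both. These values depend on the assumed count and are not lower limits. With all libraries the lower limits are those of the intervals above.

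Zfp558 entered the set only through the combined treatment, the group in which it was highest. Its levels were 8.97, 6.33 and 6.52 with R848, 0.774, 0 and 1.27 with IFN-α, and 23.5, 21.6 and 21.1 with both, and no group overlapped another. From summed counts of 73, 6 and 218, the ratio to IFN-α was 10.3 with R848 (4.53 to 29.1) and 30.9 with both (14 to 85.3). Leaving out IFN-α replicate 3 moved the fitted log2 differences from 3.30 to 4.15 and from 4.89 to 5.73.

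**Figure D2:**
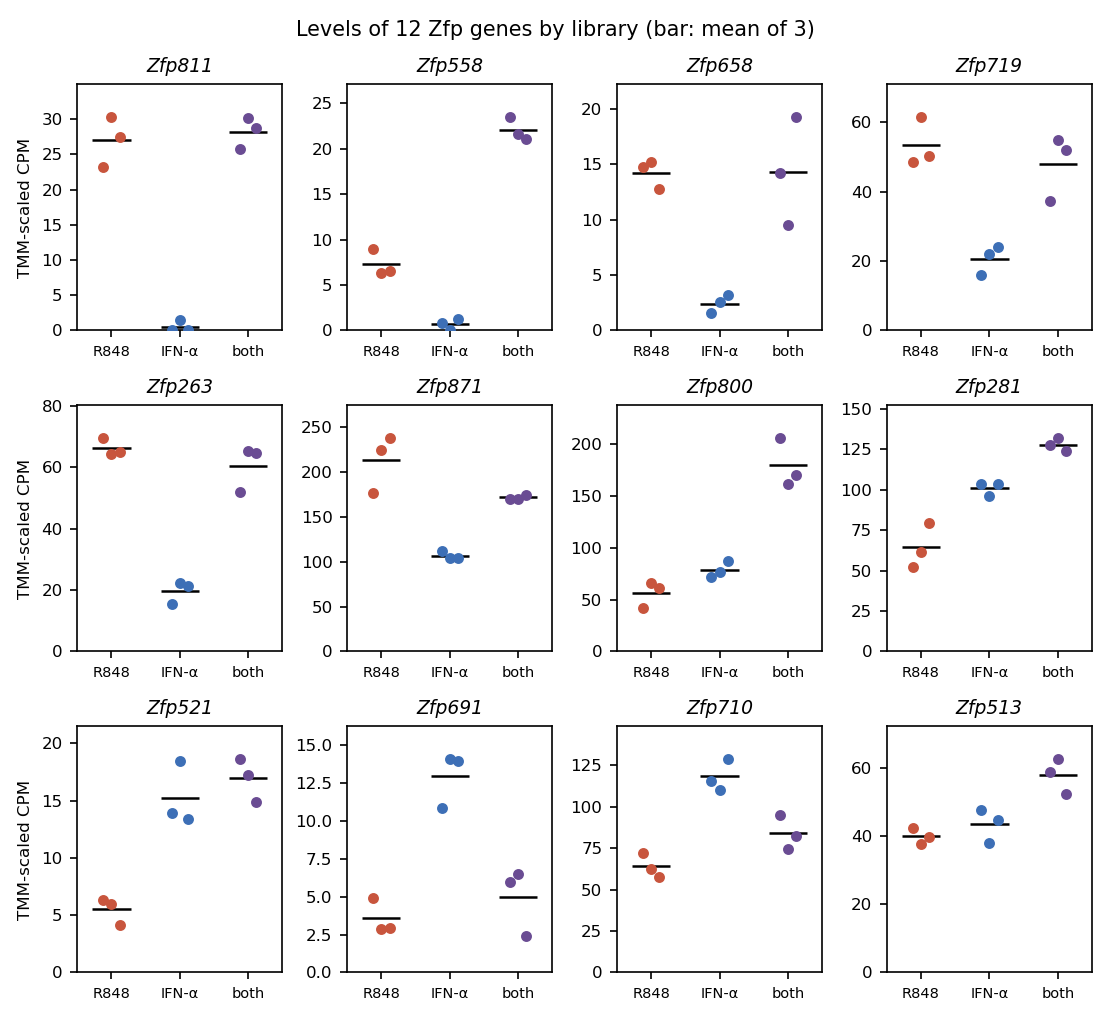
TMM-scaled CPM (vertical axes, each starting at 0) of 12 Zfp genes in each library of the 3 groups; points are libraries and bars the mean of 3. Zfp811, Zfp558, Zfp658, Zfp719 and Zfp263 are low in IFN-α, Zfp800 and Zfp281 are highest with both agents, and Zfp691 and Zfp710 are highest in IFN-α. Zfp811, Zfp558, Zfp658, Zfp521 and Zfp691 are among the 54 genes whose differences the rule favours.

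Zfp811 stands in a run of Zfp genes on chromosome 17, between Zfp871 (7.39 kb away) and Zfp799 (5.52 kb away), both on its strand. Zfp871 falls outside the naming rule and was chosen as a neighbour after its values were seen. Its levels were 176, 225 and 238 with R848, 112, 104 and 104 with IFN-α, and 170, 170 and 175 with both. The difference from IFN-α was 1.00 with R848 (SE 0.11, adjusted p = 3.12e-09) and 0.69 with both (SE 0.11, adjusted p = 5.27e-06). Zfp799, also chosen after its values were seen, differed from IFN-α by 0.43 with R848 (SE 0.19, adjusted p = 0.0875) and by -0.20 with both (SE 0.21, adjusted p = 0.5). Over all 42 pairs of members that were next to each other among tested genes, neighbours had the same call in 5 pairs and opposite calls in 1 for R848 against IFN-α. For both agents against R848 the numbers were 3 and 2, and for both against IFN-α 2 and 0, all calls by edgeR's adjusted p. No such count was made over neighbouring pairs of all genes tested, and some pairs hold members that the rule favours. These numbers therefore do not show whether neighbours change together. Across those pairs the log2 differences correlated with r = 0.20, 0.14 and 0.09 in the same order, values over genes that share libraries and in part a sequence family.

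Other members of known function among the 103 were as follows. Zfp568, a KRAB repressor of a placental Igf2 transcript, was at 27.9 ± 4.4 with R848, 11.8 ± 2.02 with IFN-α and 19.9 ± 2.56 with both; R848 exceeded IFN-α by 1.23 (SE 0.19, adjusted p = 4.45e-06). Zfp445, which with its relatives keeps imprinted loci methylated, was at 117, 133 and 156 with R848 against 93.3, 103 and 97.6 with IFN-α, groups that did not overlap (0.47, SE 0.11, adjusted p = 0.000681). Zfp638, a nuclear protein that takes part in silencing unintegrated retroviral DNA, was at 120, 154 and 157 with R848, 118, 103 and 109 with IFN-α, and 94.5, 90.7 and 91.5 with both. The R848 difference from IFN-α was 0.39 (SE 0.11, adjusted p = 0.00418). Zfp809, which silences murine leukaemia virus, was at 17.2, 13.3 and 12.3 in R848, IFN-α and both, and no comparison passed the test.

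Other members higher with R848 include Zfp275 on the X chromosome. Its levels were 50.9, 46.5 and 49.5 with R848, 24.0, 22.4 and 18.8 with IFN-α, and 21.7, 27.6 and 32.6 with both, so that only R848 stood apart (1.18 over IFN-α, SE 0.16, adjusted p = 3.07e-07). Zfp598, the ubiquitin ligase that marks collided ribosomes, was at 32.7, 27.5 and 24.0 with R848 against 19.4, 15.9 and 15.6 with IFN-α (0.73, SE 0.18, adjusted p = 0.00124). Zfp703, a co-repressor of the NET family, differed by 1.04 (SE 0.23, adjusted p = 0.000496). Its relative Zfp503 did not pass the test in this comparison (-0.15, SE 0.19, adjusted p = 0.561).

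Among the 8 of 103 that were lower with R848, Zfp710 was at 72.3, 62.3 and 57.8 with R848, 116, 110 and 129 with IFN-α, and 94.9, 74.7 and 82.6 with both. The R848 difference from IFN-α was -0.88 (SE 0.12, adjusted p = 1.83e-07) and the 2 groups did not overlap. Zfp516, a regulator of the brown-fat gene Ucp1, was at 37.9, 27.2 and 37.6 with R848 and at 60.4, 54.0 and 63.9 with IFN-α (-0.79, SE 0.14, adjusted p = 2.12e-05). Among the 54, Zfp691 was at 4.92, 2.85 and 2.96 with R848, 10.8, 14.1 and 14.0 with IFN-α, and 5.98, 6.48 and 2.41 with both. Zfp455 was at 4.50, 13.1 and 10.5 on average, and Zfp521, a co-regulator in blood and neural precursors, at 5.51, 15.2 and 16.9.

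When IFN-α was present together with R848, a smaller share of members than of all genes was called higher than with R848 alone. The share called lower was nearer that of all genes. Of 157 members, 16 were higher (10.2%), where 19.2% of all genes tested were, and 34 lower (21.7%), where 16.7% of all genes were. Among the 103 the numbers were 12 and 23. Over the 244 numbered Zfp genes tested, 20 were higher (8.2%) and 38 lower (15.6%). The median log2 difference was -0.14 over the 103, -0.36 over the 54 and -0.20 over the 157, against -0.03 over all genes. By plain CPM, 15 members entered through R848 alone and 1 through both agents alone, so the rule itself bears on the median over the 157. A change of at least 2-fold was called for 5 members higher (8.88% of all genes) and 3 lower (3.70%). Among the 103 it was called for 2 higher and 0 lower. The lower count was 21 with DESeq2, and on library totals, which moved the median of all genes to -0.42, it was 96 with 7 higher. It was 59 with 12 higher on upper-quartile factors, 22 without R848 replicate 3 and 21 without R848+IFN-α replicate 3. The 3 comparisons share libraries, so a gene high in R848 enters the first and second from the same values.

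Zfp800 had the greatest rise. Its levels were 41.7, 65.8 and 61.6 with R848, 72.0, 76.4 and 87.5 with IFN-α, and 207, 162 and 171 with both. The combined libraries were all high and overlapped neither single agent. The difference was 1.67 from R848 (SE 0.13, adjusted p = 1.29e-11) and 1.19 from IFN-α (SE 0.13, adjusted p = 1.34e-08), and both calls held under every alternative. R848 was lower than IFN-α by a log2 difference of -0.49 (SE 0.14, adjusted p = 0.00597), a call that ended on library totals (adjusted p = 0.0529) and without IFN-α replicate 3 (adjusted p = 0.0501).

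Zfp281, which binds GC-rich promoters and works with the NuRD complex, followed the same order. Its levels were 52.1, 61.4 and 79.7 with R848, 104, 96.3 and 103 with IFN-α, and 127, 132 and 124 with both, so that no groups overlapped. The difference of both from R848 was 0.99 (SE 0.12, adjusted p = 5.9e-08). Against IFN-α it was 0.33 (SE 0.12, adjusted p = 0.026), which did not pass the test under 7 alternatives, among them library totals (0.02, adjusted p = 0.908). Its close relative Zfp148 was at 94.0, 124 and 116 with R848, 122, 132 and 134 with IFN-α, and 122, 117 and 115 with both; no comparison passed the test, adjusted p-values running from 0.0976 to 0.561.

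Zfp516 was higher with both than with R848, at 58.6, 59.6 and 58.5 (0.78, SE 0.14, adjusted p = 3.33e-05), and did not differ from IFN-α beyond its error (-0.02, SE 0.13, adjusted p = 0.947). Zfp319 was at 18.8, 13.6 and 7.70 with R848, 23.2, 23.9 and 17.2 with IFN-α, and 26.1, 27.2 and 32.4 with both (1.11 over R848, SE 0.21, adjusted p = 0.000114). Among the 54, Zfp521 had the same order, at 6.37, 6.01 and 4.15 with R848, 13.9, 18.5 and 13.4 with IFN-α, and 18.7, 17.3 and 14.9 with both. For Zfp516 and Zfp521 the R848 libraries were all low and those of IFN-α and the combination overlapped, whereas for Zfp319 R848 overlapped IFN-α and the combination lay above both.

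Among the 103, 7 were higher with R848 than with IFN-α, lower with both than with R848, and did not pass the test between both agents and IFN-α, a pattern of 5.87% of all genes tested. Zfp275 was among them (-0.81 against R848, SE 0.15, adjusted p = 6.06e-05). Zfp638 was too (-0.64, SE 0.11, adjusted p = 1.59e-05), and Zfp445 (-0.36, SE 0.11, adjusted p = 0.007), whose call ended without R848 replicate 3 (adjusted p = 0.0904). Another 10 of the 103 were lower with both than R848 with no other call, a pattern of 4.08% of all genes, among them Zfp106, an RNA-binding protein needed by motor neurons. Its levels were 84.2, 76.6 and 80.9 with R848 against 54.5, 62.6 and 57.9 with both (-0.47, SE 0.12, adjusted p = 0.00178).

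**Figure D3:**
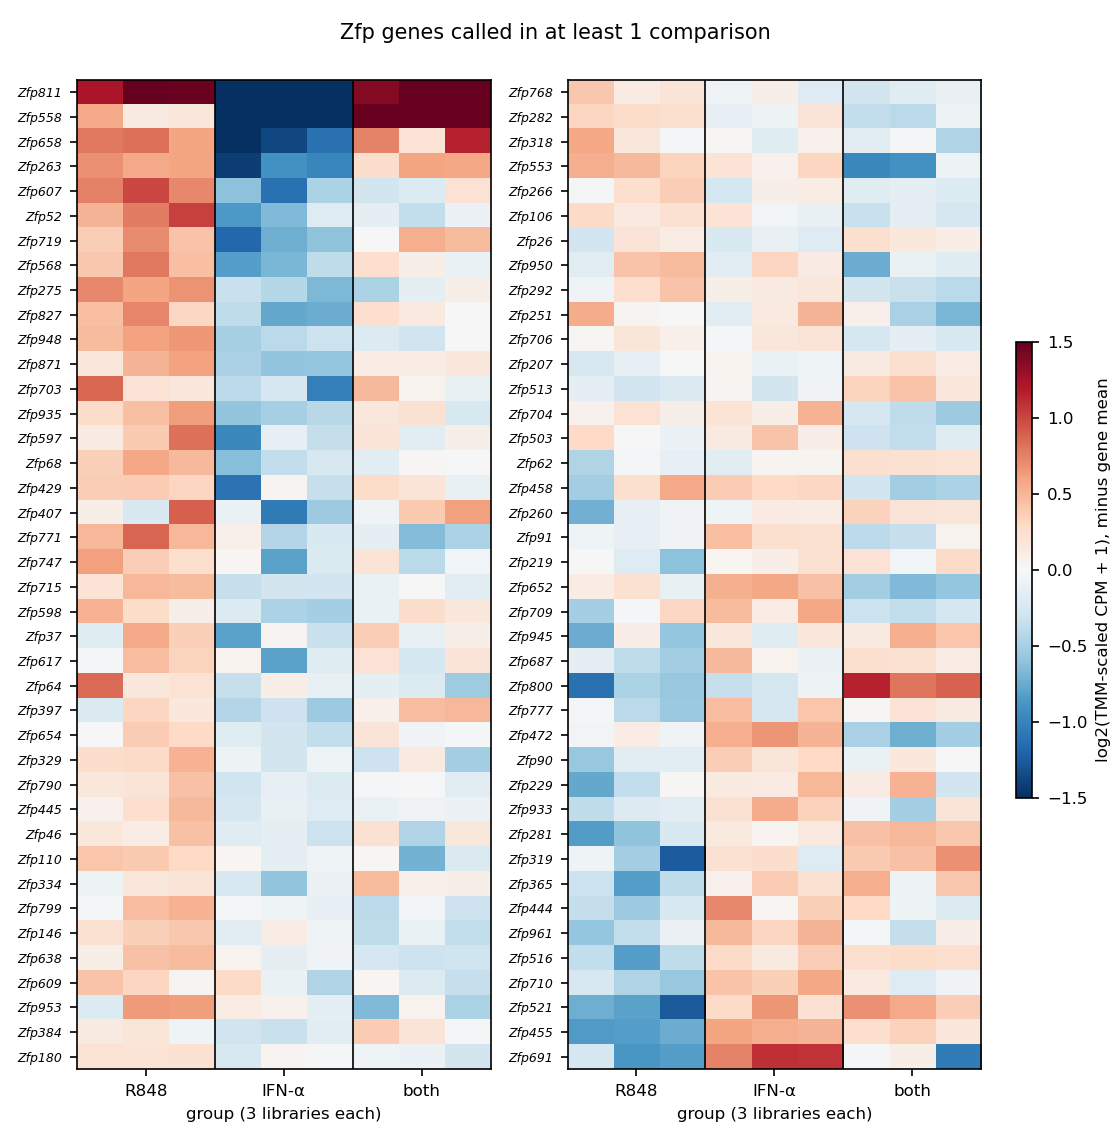
Levels of the 80 Zfp genes called in at least 1 comparison (55.1% of all genes tested were), in log2(TMM-scaled CPM + 1) minus each gene's mean over the 9 libraries; colours are clipped at 1.5 either way. Rows run from the gene highest with R848 relative to IFN-α to the lowest, and the 3 columns of each group stand for its libraries.

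In the comparison of both agents with IFN-α alone, 20 of 157 members were higher, where 18.5% of all genes tested were, and 12 lower, where 14.7% of all genes were. Among the 103 the numbers were 14 and 6. Over the 244 numbered Zfp genes tested, 22 were higher (9.02%) and 18 lower (7.38%). The median log2 difference was 0.03 over the 103, -0.25 over the 54 and -0.03 over the 157, against -0.01 over all genes. A change of at least 2-fold was called for 6 members higher (6.95% of all genes) and 3 lower (4.38%). Among the 103 it was called for 3 higher and 0 lower. On library totals 9 were higher and 55 lower, on upper-quartile factors 14 and 22, and without R848 replicate 1 the lower count was 20. In 6 of the 103 members, where 4.94% of all genes tested had this pattern, R848 and the combination were each called higher than IFN-α and were not called against each other. Zfp263 and Zfp719 were among them, as were Zfp598, Zfp703 and Zfp384, whose differences of both from IFN-α were 0.54, 0.71 and 0.45, and these calls ended under 1 or more alternatives.

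**Figure D4:**
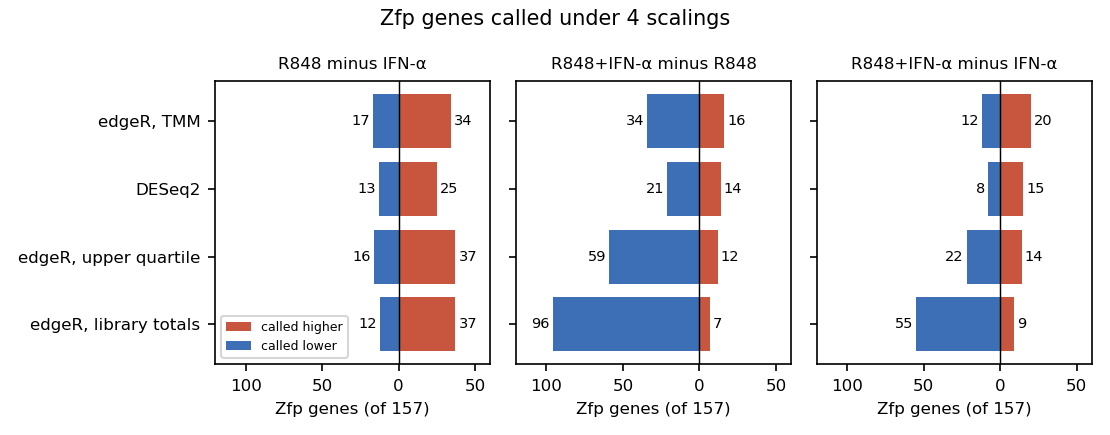
Number of the 157 Zfp genes called higher (red, right) and lower (blue, left) in the 3 comparisons under edgeR with TMM, DESeq2, edgeR with upper-quartile factors and edgeR with library totals. For both agents against R848 the lower count runs from 21 to 96, and for both agents against IFN-α on library totals it is 55. With TMM, 16.7% and 14.7% of all genes tested were called lower in these comparisons, in that order.

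Measured against both single agents, 3 members were higher with the combination, where 7.33% of all genes tested were, and 2 were lower, where 2.82% of all genes were. The weaker p-value of each gene's comparisons with the single agents was adjusted over all genes for this joint call. One of the 3 was Zfp558, which the rule had chosen on its level in the combination, so its call carries no weight. The others were Zfp800, whose call held under all 16 alternatives, and Zfp513, a protein of retinal development, whose call (adjusted p = 0.0489) held under 4 of them. Zfp513 was at 42.2, 37.6 and 39.7 with R848, 47.6, 38.0 and 44.5 with IFN-α, and 58.6, 62.6 and 52.3 with both. Its differences were 0.52 from R848 (SE 0.13, adjusted p = 0.00206) and 0.40 from IFN-α (SE 0.13, adjusted p = 0.0186). On library totals they were 0.14 and 0.10 and neither passed.

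The lower ones were Zfp704 and Zfp292. Zfp704 was at 49.8, 55.4 and 50.6 with R848, 55.0, 50.7 and 68.7 with IFN-α, and 40.0, 36.3 and 32.4 with both, the combined libraries lying below all others. Its differences were -0.53 from R848 (SE 0.14, adjusted p = 0.00311) and -0.70 from IFN-α (SE 0.14, adjusted p = 0.000189). Zfp292 was at 52.1, 65.2 and 74.0, then 58.1, 60.1 and 61.7, then 45.2, 43.2 and 41.2 in the same order of groups, with differences of -0.57 (SE 0.13, adjusted p = 0.00101) and -0.48 (SE 0.14, adjusted p = 0.00602). Each of these 4 differences on its own passed under every alternative run, but the joint call did not. For Zfp704 it (adjusted p = 0.00997) held under 14 of 16 alternatives and for Zfp292 (adjusted p = 0.0172) under 12. Without R848+IFN-α replicate 3 neither gene was called jointly (adjusted p = 0.12 and 0.11), and 2 other members, Zfp655 and Zfp553, took their place. The count of 2 was 27 on library totals and 8 on upper-quartile factors, 5 without R848 replicate 1, and 1 without R848 replicate 2, IFN-α replicate 2 or 3, or R848+IFN-α replicate 2.

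No comparison was called for 77 of the 157 members (49%) or for 50 of the 103 (48.5%), against 44.9% of all genes tested. The 77 include Zfp622 and Zfp593, which act in assembly of the large ribosomal subunit, Zfp451, a SUMO ligase, and Zfp217, a partner of CtBP co-repressors. Zfp410, which drives transcription of the remodeller Chd4, was at 22.6 ± 2.31, 23.9 ± 5.4 and 29.3 ± 7.31 in R848, IFN-α and both. Chd4 itself was at 318 ± 26.3, 167 ± 9.2 and 280 ± 23, higher with R848 than IFN-α by 0.93 (SE 0.09, adjusted p = 1.29e-09). The median standard error of a member's log2 difference was 0.20 to 0.21, so differences of that size were not detectable here. Larger differences also went uncalled, such as the 0.43 of Zfp799 between R848 and IFN-α. The lack of a call is therefore no sign of equal levels.

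Split by the KRAB pattern and taking only members at the threshold in every group, 10 of 36 with the pattern were higher with R848 than IFN-α and 2 lower. Of 63 with fingers and no such pattern, 11 were higher and 6 lower, beside 18.4% and 19.0% of all genes tested. With both agents against R848, 1 of 36 was higher and 9 lower, against 11 higher and 14 lower of 63, beside 19.2% and 16.7% of all genes. The difference between these classes was not tested.

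The machinery that KRAB proteins recruit was read in 31 tested genes from a list of 33. With R848 against IFN-α, 2 of the 31 were higher (Chd4, and Mta2 of the same NuRD complex) and 11 lower, with a median of -0.28, beside 18.4% higher and 19.0% lower over all genes tested. With both agents against R848, 6 were higher and 4 lower (19.2% and 16.7% of all genes), and against IFN-α 2 were higher and 5 lower (18.5% and 14.7%). Trim28, the co-repressor that binds KRAB, was at 61.7 ± 13, 57.4 ± 1.78 and 53.8 ± 1.98 in R848, IFN-α and both, and Setdb1, the histone methyltransferase it recruits, at 28.2 ± 1.79, 24.0 ± 4.36 and 21.8 ± 1.3. Neither passed the test in any comparison. Daxx, a histone chaperone with Atrx, was at 20.1 ± 5.15, 195 ± 5.45 and 328 ± 30.2. Among other zinc-finger families, to be read against the same 18.4% and 19.0%, 7 of 32 Zbtb genes were higher and 5 lower with R848 than IFN-α, and 3 of 15 Zfp genes with a letter suffix were higher and 0 lower by edgeR's adjusted p. For the 12 Zkscan and Zscan genes it was 1 and 1, and for the 16 Zc3h genes, RNA-binding proteins with another finger type, 2 and 4. Whether any of these lists differed from the 157 was not tested.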

How the data were processed

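The authors deposited STAR per-gene read counts, 1 table per library with unstranded, forward and reverse columns; CASAVA 1.8.2, Trimmomatic 0.33, STAR 2.5.1, DESeq2 and build mm10 are named in the submitters' processing notes, and their annotation was not stated. The reverse-strand column was used, since the forward strand held a median of 0.75% of member counts. Genes passing edgeR's filter (minimum count 10, minimum total 15) were fitted with edgeR 4.0.16 in R 4.3.3 (TMM factors, robust quasi-likelihood, group means only, all 9 libraries), and p-values were adjusted by Benjamini-Hochberg over 11002 genes. Standard errors are the log2 difference over the root of F and are approximate. Scripts were tested on simulated data. DESeq2 1.42.0, other scalings and filters, the unstranded column, a replicate block and leaving out each library were run as alternatives. Same-numbered libraries did not deviate together (correlations -0.101 to 0.0587 over 9 pairs).

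The members and gene lists were chosen with earlier results of these data known. Named genes are the 10 greatest called changes each way per comparison, those called against both single agents, the 5 highest per kilobase, those next to the threshold and a list of genes with known roles; Zfp871 and Zfp799, the 12 genes plotted by library and the neighbours described were chosen after values were seen. So were the widened KRAB pattern (61 members, 51 at first), 3 of the 8 motifs (the ETS, NRF1 and YY1 types), and the choice to give no p-value for the 54 members that the threshold favours. Proteins were read from translated GENCODE M21 transcripts (GRCm38), and promoters from RefSeq.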

Additional observations from a re-analysis of the deposited data

Results flagged for a closer look

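Forward-strand counts, which entered no comparison, were above 10% of a gene's stranded counts in 2 of the 157 members. Zfp335, a regulator of neural progenitors, had 233 forward counts over the 9 libraries, 23.2% of its total, as 77 with R848, 62 with IFN-α and 94 with both. Zfp142 had 97, or 20%, as 24, 32 and 41. Over all genes the forward share was 1.3%. Neither gene was called in any comparison of reverse-strand counts, and the source of these counts was not tested.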

How the results depend on the processing

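For R848 against IFN-α, every alternative gave 25 to 40 higher and 11 to 18 lower members, the 11 without IFN-α replicate 1. For both agents against R848, 16 higher became 7 on library totals, and 34 lower became 21 with DESeq2, 96 on library totals and 59 on upper-quartile factors. For both against IFN-α, 20 higher became 9 on library totals, and 12 lower became 55 there and 22 on upper-quartile factors. Members lower than both single agents went from 2 to 27 and 8 on the same scalings. Leaving out 1 library at a time gave 12 to 17 higher and 21 to 40 lower (both against R848), 14 to 24 and 8 to 20 (both against IFN-α), and 2 to 4 above and 1 to 5 below both single agents. Library totals moved the median of all genes to 0.10, -0.42 and -0.32 in the 3 comparisons. The cause of the other shifts was not tested. Of 59 named calls among the 103 members, 31 held under every alternative run. Zfp207 reversed on library totals (-0.11, adjusted p = 0.499) for both against R848. Membership was 85 at 20 CPM, 228 at 5 CPM and 103 where every group had to pass. It was 179 with Rn45s left out of the library totals, and 155 to 161 with 1 library left out. The replicate block gave 34 higher and 18 lower members for R848 against IFN-α and 16 higher and 34 lower for both against R848. The labels do not say whether libraries with the same number share a culture, and their low correlations do not settle it. At about 25 to 60 counts for 10 CPM, depth limits the low members.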
